A study of Mus musculus with 6 samples.

Results

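Chemokines are small secreted proteins that attract leukocytes by binding G protein-coupled receptors. The 10 chemokine genes described here were Cxcl1, Cxcl2, Cxcl5, Ccl2, Ccl7, Ccl20, Cxcl10, Ccl5, Cxcl12 and Cx3cl1, out of 55416 genes in the table. They were chosen by name, with earlier results of these libraries known, and both contrasts described here (replicate 2 against replicates 1 and 3, and siPkm2 against siNC) were among the values that chose them, so their own values are a description with no test. RNA-seq had been run on primary mouse chondrocytes, the matrix-forming cells of cartilage, transfected with a non-targeting siRNA (siNC, n = 3 libraries) or with an siRNA against Pkm2 (siPkm2, n = 3 libraries). The titles number the libraries of each group 1, 2 and 3. The genotype label of the siNC libraries is WT, and those of the siPkm2 libraries name a knockdown of PKM2, PKM3 and PKM4 in replicates 1, 2 and 3. All 6 cultures were kept in DMEM/F12 medium with fetal bovine serum, and no library is labelled as given a cytokine. The labels name the knee joints of neonatal mice as the source, while the supplementary methods describe adult mice, and no source used here says whether the libraries of a group came from separate animals, so that every p-value below measures only the spread between these libraries. In bulk RNA, more cells of a type and more RNA per cell cannot be told apart.

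Chemokine genes are commonly grouped by what switches them on. Cxcl1, Cxcl2, Cxcl5, Ccl2, Ccl7 and Ccl20 are known targets of NF-kB, the transcription factor activated by interleukin-1 and tumour necrosis factor, and are called the NF-kB type here. Cxcl10 and Ccl5 respond strongly to interferon, though NF-kB also acts on both, and are called the interferon type. Cxcl12 and Cx3cl1 were kept apart from both types. Chondrocytes are known to release NF-kB type chemokines when exposed to inflammatory cytokines, as in an osteoarthritic joint.

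The siRNA's target was lower in every siPkm2 library. Pkm, which encodes the PKM1 and PKM2 pyruvate kinases, had 2335, 2746 and 1674 CPM (the count scaled to the size of the library, with TMM factors) in the 3 siNC libraries. In the siPkm2 libraries it had 336, 541 and 309 CPM. Its log2 fold change was -2.51 ± 0.33 (SE), with an edgeR adjusted p of 0.0738, and -2.53 ± 0.13 with the replicate number as a block, with an adjusted p of 0.00932. Totals lay between 22317065 and 25691096 estimated counts a library. The replicate 2 libraries of both groups stood apart from the other 4. A list of 10 chondrocyte markers summed to 10041 CPM in siNC replicate 2 and 14002 CPM in siPkm2 replicate 2, against 39010 to 46535 CPM in the other 4 libraries. All 10 of those markers, Col2a1 and Acan among them, were detected in every library.

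Several of the genes lie side by side. Positions are those of GENCODE M21 on GRCm38. Cxcl5 (chr5:90759360-90761624), Cxcl1 (chr5:90891241-90893115) and Cxcl2 (chr5:90903871-90905938) are all on the plus strand, with 129.6 kb between Cxcl5 and Cxcl1 and 10.8 kb between Cxcl1 and Cxcl2. Cxcl10 (chr5:92346638-92348889) is on the minus strand of the same chromosome. Ccl2 (chr11:82035571-82037453) and Ccl7 (chr11:82045712-82047525) are 8.3 kb apart on the plus strand, and Ccl5 (chr11:83525778-83530518) is on the minus strand. Ccl20 (chr1:83116766-83119167), Cxcl12 (chr6:117168535-117181367) and Cx3cl1 (chr8:94772009-94782427) are each alone among the 10 on their chromosome, on the plus strand. Cxcl1, Cxcl2 and Cxcl3 resemble each other in sequence, as do Ccl2, Ccl7 and Ccl12, so reads may have been divided among them by the authors' counting. Cxcl2 carried fractional counts in both replicate 2 libraries.

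The promoters of 6 of the 10 genes were matched in RefSeq on GRCm38.p6. Cxcl5, Ccl2, Ccl7 and Ccl5 had no match, so their promoters were not searched for motifs. Of the 6, the 250 bases before the start are printed for the 4 in which a searched motif was found. Capitals mark matches, on either strand, to the kappaB consensus bound by NF-kB or to GAAANNGAAA, the core of the interferon-stimulated response element (ISRE) bound by STAT and IRF complexes. Each sequence is written 5′ to 3′ on the strand of its gene.
Cxcl1 (chr5:90890995-90891244, plus): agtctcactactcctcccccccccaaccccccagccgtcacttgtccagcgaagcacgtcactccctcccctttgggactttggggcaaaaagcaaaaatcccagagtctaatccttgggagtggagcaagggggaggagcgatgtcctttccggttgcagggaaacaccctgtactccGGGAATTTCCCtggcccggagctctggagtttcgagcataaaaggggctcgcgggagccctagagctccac
Cxcl2 (chr5:90903649-90903898, plus): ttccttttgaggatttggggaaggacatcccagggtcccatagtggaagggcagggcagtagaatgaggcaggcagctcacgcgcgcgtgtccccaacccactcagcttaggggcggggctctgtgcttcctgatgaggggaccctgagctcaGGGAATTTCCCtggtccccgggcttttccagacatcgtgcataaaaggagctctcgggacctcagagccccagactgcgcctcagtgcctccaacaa
Ccl20 (chr1:83116516-83116765, plus): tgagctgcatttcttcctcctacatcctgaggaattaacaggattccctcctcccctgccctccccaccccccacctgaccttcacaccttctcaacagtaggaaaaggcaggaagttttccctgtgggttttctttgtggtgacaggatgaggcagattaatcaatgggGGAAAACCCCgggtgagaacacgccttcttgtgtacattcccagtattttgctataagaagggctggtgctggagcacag
Cxcl10 (chr5:92348890-92349139, minus): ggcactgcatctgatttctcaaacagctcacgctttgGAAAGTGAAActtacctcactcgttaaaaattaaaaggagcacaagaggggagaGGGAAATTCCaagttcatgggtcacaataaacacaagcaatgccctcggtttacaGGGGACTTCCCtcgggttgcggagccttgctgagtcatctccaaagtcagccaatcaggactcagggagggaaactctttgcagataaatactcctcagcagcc
Cxcl1 and Cxcl2 held the same word, GGGAATTTCC, at -71 to -62 and at -97 to -88 from the start, and in each an overlapping match was read on the other strand. Ccl20 held 1 kappaB match, GGGGTTTTCC on the minus strand of the printed sequence, at -80 to -71. Cxcl10 held GGGAAATTCC at -159 to -150 and a cluster of overlapping kappaB matches between -104 and -94. Cxcl10 also held the 1 ISRE core found in the 6 promoters searched, GAAAGTGAAA at -213 to -204, which did not overlap a kappaB match. Neither set of letters was found in the windows of Cxcl12 and Cx3cl1. Of all 32851 windows of this length, 7.25% held the kappaB consensus and 2.98% held the ISRE core. A match is a description of the letters and does not show binding.

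**Figure D1:**
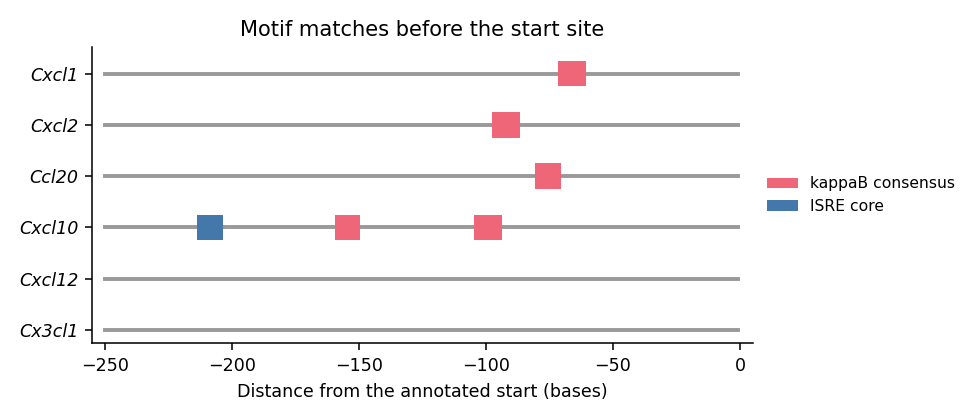
Matches to 2 motifs in the 250 bases before the start of 6 chemokine genes. The x axis is the distance from the RefSeq start in bases, red boxes are kappaB matches and the blue box is the ISRE core. Cxcl10 alone of the 6 holds both, and the lines of Cxcl12 and Cx3cl1 hold no box.

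The first question was how the chemokines varied among libraries of 1 group. Levels between genes are given in TPM, which the authors scaled by transcript length. In the 4 libraries of replicates 1 and 3, Cxcl12 had the highest median, 314 TPM with a range of 30.1 to 1061. Ccl2 followed with a median of 46.8 TPM, then Cx3cl1 with 32.7, Ccl7 with 29.1, Cxcl5 with 20.5, Cxcl10 with 12.4, Ccl5 with 10.6 and Cxcl1 with 8.92. Every neighbouring pair in that order overlapped in range. Cxcl2, at 0 to 2.38 TPM, and Ccl20, at 0 to 1.01 TPM, came last, and their ranges lay below that of Cxcl1.

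In replicate 2 the order was another. Ccl5 stood first, at 3345 TPM in siNC and 2859 TPM in siPkm2, above the 1879 and 1612 TPM of Ccl2. Cxcl1 reached 1076 and 1645 TPM, a range that overlapped that of Ccl2. Cxcl5 and Ccl7 had nearly equal medians, 815.4 and 815.2 TPM. Cxcl12, which led the other 4 libraries, was at 284 and 205 TPM in replicate 2, in seventh place by its median and overlapping its neighbours Cxcl10 and Cx3cl1.

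**Figure D2:**
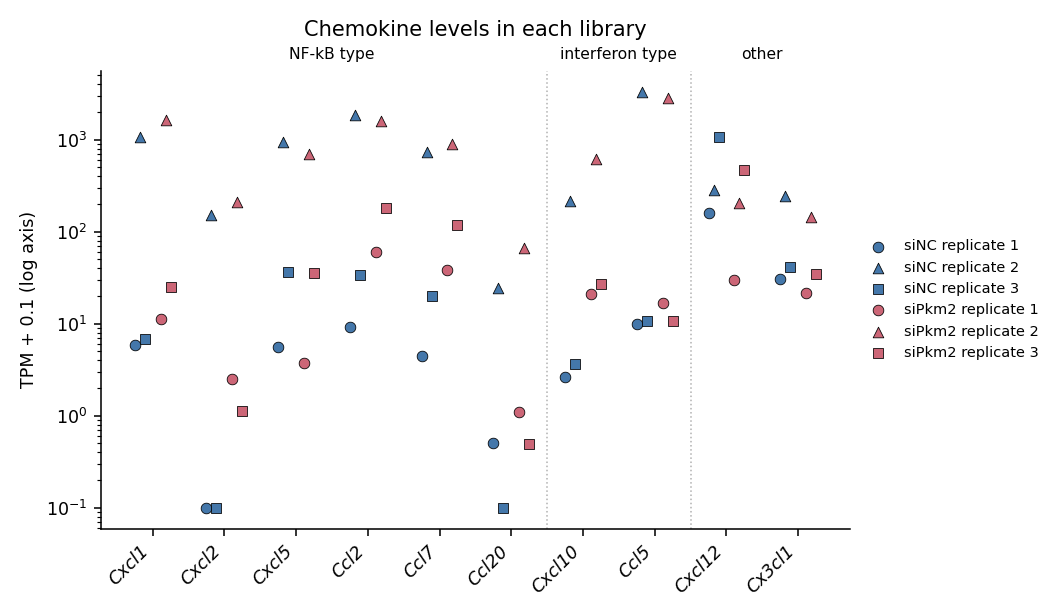
Level of each chemokine in the 6 libraries, as TPM + 0.1 on a log axis, with siNC in blue and siPkm2 in red and a marker shape for each replicate number. The triangles of replicate 2 lie above the circles and squares of the same group for 9 of the 10 genes. Cxcl12, whose highest point is siNC replicate 3 at 1061 TPM, is the exception.

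The NF-kB type genes that attract neutrophils were far higher in replicate 2 than in the other libraries of each group. Cxcl1, Cxcl2 and Cxcl5 are CXC chemokines that bind CXCR2. Cxcl1 had 79, 11785 and 76 estimated counts in siNC replicates 1, 2 and 3 and 127, 19437 and 278 in siPkm2 replicates 1, 2 and 3. Replicate 2 was above the other 2 libraries of its group, pooled, by 147-fold in CPM in siNC and 80.9-fold in siPkm2. In each replicate number the siPkm2 library was the higher, by 1.87-fold (95% counting interval 1.40 to 2.51), 1.59-fold (1.55 to 1.62) and 3.82-fold (2.95 to 4.99). These intervals, exact binomial (Clopper-Pearson) on the counts of the libraries, cover counting error only and say nothing of the spread between cultures.

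Cxcl2 was read in replicate 2 and hardly elsewhere. It had 0, 1840.26 and 0 estimated counts in siNC and 11, 2713.14 and 15 in siPkm2. Both siNC libraries with 0 counts allow up to 3 counts, 0.120 CPM in replicate 1 and 0.131 CPM in replicate 3. With 0 counts below the line a ratio has no upper limit, and its lower 95% counting limit was 964 for siNC replicate 2 over replicates 1 and 3 pooled. In siPkm2, replicate 2 was 175.9-fold (119.8 to 269.8) above its replicates 1 and 3. Between siRNAs, siPkm2 was the higher in each replicate number, with lower limits of 2.92-fold in replicate 1 and 3.74-fold in replicate 3 and a ratio of 1.42 (1.34 to 1.51) in replicate 2.

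Cxcl5 was raised in replicate 2 like its neighbours on the chromosome but differed from them between siRNAs. It had 136, 19125 and 716 estimated counts in siNC and 74, 15375 and 703 in siPkm2. Replicate 2 was 43.4-fold above the others in siNC and 33.4-fold in siPkm2. The siPkm2 libraries were at 0.633 (0.471 to 0.847), 0.773 (0.757 to 0.790) and 1.02 (0.922 to 1.14) of their siNC partners in CPM. The last interval includes 1, and replicate 1 was lower than replicate 3 in both groups.

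Ccl2 and Ccl7, which attract monocytes through CCR2, stood apart from Cxcl5 in the siRNA contrast. Ccl2 had 92, 16075 and 272 estimated counts in siNC and 495, 14910 and 1475 in siPkm2. It was 6.26-fold (5.01 to 7.91) higher in siPkm2 in replicate 1 and 5.66-fold (4.97 to 6.47) higher in replicate 3, and at 0.892 (0.872 to 0.912) of siNC in replicate 2. Thus the direction differed between replicate 2, where the gene was high in both groups, and the other replicate numbers, where it was lower.

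Ccl7 behaved much as its neighbour. It had 43, 6022 and 153 estimated counts in siNC and 310, 8088 and 931 in siPkm2. The siPkm2 library was 8.39-fold (6.09 to 11.8), 1.29-fold (1.25 to 1.34) and 6.35-fold (5.35 to 7.59) higher in replicates 1, 2 and 3. Because replicates 1 and 3 were already higher in siPkm2, replicate 2 was above them by 11.0-fold in siPkm2 for Ccl7 and 12.8-fold for Ccl2, against 59.4-fold and 85.4-fold in siNC.

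Ccl20, the ligand of CCR6 that draws Th17 and dendritic cells, did not pass the filter on low counts. It had 4, 219 and 0 estimated counts in siNC and 8, 639 and 3 in siPkm2. In replicate 2 it was 2.81-fold (2.40 to 3.29) higher in siPkm2. In replicate 1 the 8 against 4 counts gave a ratio of 2.33 with an interval of 0.624 to 10.6, which includes 1, and in replicate 3 both libraries were at or under 3 counts. Replicate 2 was above the others by 106-fold (40.8 to 392) in siNC and 97.9-fold (54.4 to 197) in siPkm2.

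Of the interferon type genes, Cxcl10 was higher in siPkm2 throughout. Its protein attracts activated T cells through CXCR3. It had 38, 2776 and 43 estimated counts in siNC and 262, 8463 and 300 in siPkm2. The ratios were 8.03 (5.70 to 11.6), 2.93 (2.81 to 3.06) and 7.28 (5.28 to 10.3) in replicates 1, 2 and 3. Replicate 2 was 66.3-fold above the others in siNC and 25.4-fold in siPkm2.

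Ccl5, which attracts T cells and monocytes, had the steepest replicate 2 difference among the genes with counts in all 6 libraries. It had 51, 14092 and 41 estimated counts in siNC and 68, 12889 and 42 in siPkm2. Replicate 2 was 296-fold (241 to 368) above the others in siNC and 198-fold (164 to 241) in siPkm2. Between siRNAs it showed no shared direction, with ratios of 1.55 (1.06 to 2.28), 0.880 (0.859 to 0.901) and 1.07 (0.679 to 1.69). The interferon type genes thus shared the replicate 2 difference and not the siRNA difference, and a median over these 2 genes hides that.

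Cxcl12, the ligand of CXCR4 made by mesenchymal cells at rest, did not follow the others. It had 6152, 8785 and 33169 estimated counts in siNC and 921, 6841 and 14325 in siPkm2. Replicate 2 lay between replicates 1 and 3 in both groups, and it was replicate 3 that was highest. The siPkm2 library was lower in each replicate number, at 0.174 (0.162 to 0.187), 0.749 (0.726 to 0.773) and 0.451 (0.442 to 0.460) of its siNC partner. Even so the groups overlapped, since siPkm2 replicate 3, at 467 TPM, was above siNC replicates 1 and 2, at 161 and 284 TPM.

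Cx3cl1, a chemokine tethered to the membrane that binds CX3CR1, was raised in replicate 2 by less than the NF-kB and interferon type genes. It had 1524, 10899 and 1762 estimated counts in siNC and 984, 6706 and 1448 in siPkm2. Replicate 2 was 6.42-fold (6.17 to 6.67) above the others in siNC and 4.65-fold (4.44 to 4.87) in siPkm2. The siPkm2 libraries were at 0.752 (0.693 to 0.815), 0.592 (0.574 to 0.610) and 0.858 (0.800 to 0.920) of their partners, lower in each replicate number.

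On log2(CPM + 0.5), replicate 2 lay further above the mean of replicates 1 and 3 in the NF-kB and interferon types than in Cxcl12 and Cx3cl1. The median of the 6 NF-kB type genes was 6.21 in siNC and 5.40 in siPkm2, and that of the 2 interferon type genes was 6.78 and 6.01. These types overlapped. The NF-kB type genes ran from 4.03 to 7.23 in siNC and from 3.63 to 6.60 in siPkm2. Cxcl10 was at 5.68 in siNC and 4.62 in siPkm2, and Ccl5 at 7.88 and 7.40. The median of Cxcl12 and Cx3cl1 was 0.96 and 1.45, and that of all 15269 genes tested was -0.03 and 0.00. Of those genes, 1.23% were over 4-fold higher in replicate 2 in both groups, and 8 of the 9 chemokines that passed the filter were. That contrast has 1 library a group on its raised side and was among the values that chose the genes, so nothing is read from the count. The gene nearest the limit on its inside was Cx3cl1, at 2.67 in siNC and 2.23 in siPkm2, and the 1 outside it was Cxcl12, at -0.75 and 0.66.

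**Figure D3:**
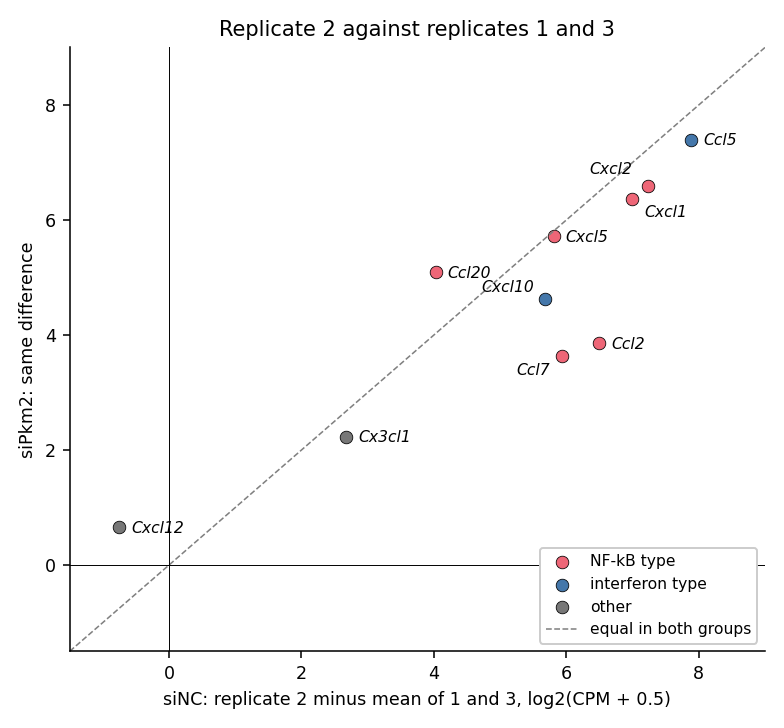
Replicate 2 minus the mean of replicates 1 and 3 on log2(CPM + 0.5), for siNC on the x axis and siPkm2 on the y axis, 1 point per gene, with a dashed line where both are equal. Ccl2 and Ccl7 lie furthest below the line, at 6.50 and 5.93 in siNC against 3.86 and 3.63 in siPkm2, and Ccl20 and Cxcl12 lie above it.

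The second question was whether the chemokines differed with the Pkm2 siRNA. Their group means are set by replicate 2, and the SD exceeded the mean in both groups for all 8 NF-kB and interferon type genes. Cxcl10, for example, was at 38.6 ± 63.9 CPM in siNC and 118 ± 183 CPM in siPkm2 (SD, n = 3), and Ccl2 at 222 ± 371 and 224 ± 310 CPM. edgeR's quasi-likelihood test without a block called 0 of 9 chemokines and 0% of the 15269 genes at a fold over 2 and an adjusted p under 0.05. At an unadjusted p under 0.05 that fit held 2690 genes and 0 of the chemokines. DESeq2, run without that filter on low counts, called 430 of 28059 genes and 0 of the 10 chemokines. The standard errors of the 9 log2 fold changes ran from 0.97 to 2.62.

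In the fit with a replicate block, the standard errors ran from 0.12 to 0.61. It called 2.65% of genes as higher and 3.18% as lower in siPkm2. Among the 9 chemokines it called Cxcl1, with a log2 fold change of 1.11 ± 0.25 (SE), and Cxcl10, with 2.30 ± 0.31, both higher, and none as lower. Ccl2 was at 1.61 ± 0.61 and Ccl7 at 1.88 ± 0.55, and these genes and Cxcl2, at 0.99 ± 0.57, had the widest errors of the 9. Cxcl5 was at -0.30 ± 0.15, Ccl5 at 0.10 ± 0.17, Cxcl12 at -1.35 ± 0.40 and Cx3cl1 at -0.47 ± 0.12. The siRNA contrast was among the values that chose the chemokines, so their calls with and without the block are a description, and nothing is read from the counts.

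By pair, the NF-kB type median of siPkm2 minus siNC was 0.91, 0.43 and 1.52 on log2(CPM + 0.5) in replicates 1, 2 and 3. That of the interferon type was 1.59, 0.68 and 1.33, and that of Cxcl12 and Cx3cl1 was -1.46, -0.59 and -0.68. The median over all genes tested was -0.01, 0.01 and 0.00. Of the 9 chemokines 4, Cxcl1, Cxcl2, Ccl7 and Cxcl10, were higher in siPkm2 in all 3 pairs, as were 30.5% of all genes. Cxcl12 and Cx3cl1 were lower in all 3, as were 30.6% of all genes.

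**Figure D4:**
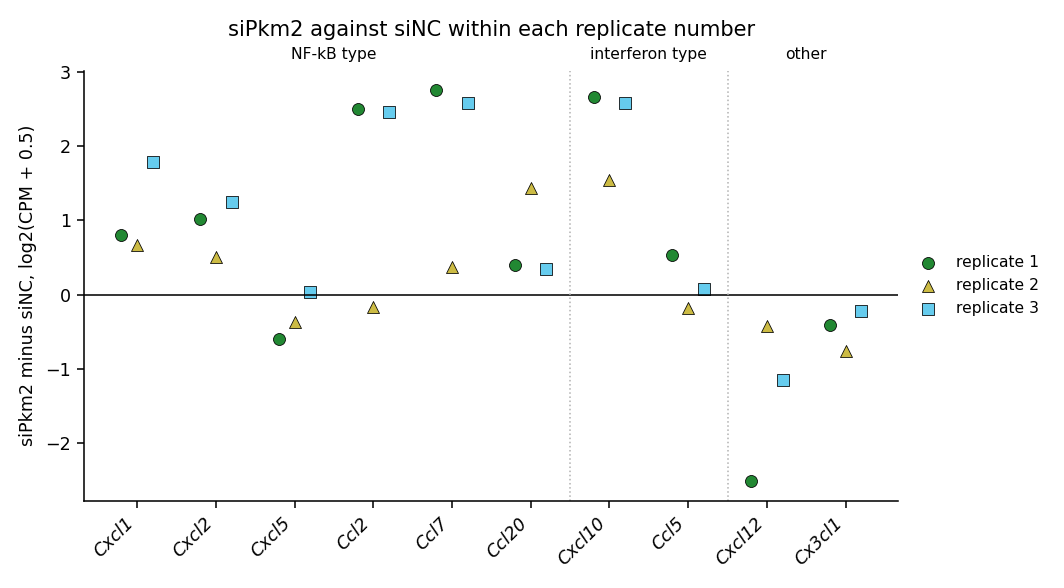
Difference of siPkm2 minus siNC within each replicate number on log2(CPM + 0.5), 1 point per pair, with a line at 0. Ccl2, Ccl7 and Cxcl10 lie above 2.4 in replicates 1 and 3 and between -0.16 and 1.55 in replicate 2, and all points of Cxcl12 and Cx3cl1 lie below 0.

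The libraries of replicate 2 were also left out. In replicates 1 and 3, both siPkm2 libraries were above both siNC libraries for 5 of the 9 chemokines, Cxcl1, Cxcl2, Ccl2, Ccl7 and Cxcl10, and for 29.1% of all genes. For none of the 9 were both below, against 29.2% of all genes. The edgeR fit of these 4 libraries called 3.34% of genes, and Cxcl10 among the chemokines, with a log2 fold change of 2.92 ± 0.26. With the block it called 4.94% of genes as higher, with Cxcl1, Cxcl2, Ccl2, Ccl7 and Cxcl10 among them, and 5.85% as lower, with Cxcl12 among them. The contrast is one that chose the genes, and these fits were added after the data had been seen, so the counts are given as a description.

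The genes also varied together across the 6 libraries, which share the split between replicate 2 and the rest. On log2(CPM + 0.5), Pearson's r over the 6 libraries was 0.997 between Cxcl1 and Cxcl2, 0.996 between Ccl2 and Ccl7 and 0.911 between Cxcl10 and Ccl5. Cxcl12 had values between -0.19 with Cxcl10 and 0.34 with Cxcl5. Cx3cl1 varied with the NF-kB and interferon type genes, with values between 0.803 with Cxcl10 and 0.959 with Cxcl5. Among the 1562 other genes with a mean of at least 1 CPM and a range of at least 2 on the log2 scale, the 5 most like the mean of the NF-kB type were A4galt, Ptges, Tgm1, Cp and Vnn3, with r from 0.997 to 0.995. Ptges, the inducible prostaglandin E synthase, was at 17.2, 324 and 29.7 CPM in siNC and 23.3, 349 and 45.4 CPM in siPkm2. The 5 most like the mean of the interferon type were H2-Q5, C2, Wfdc2, H2-Q7 and F3, with r from 1.000 to 0.996. H2-Q7, a non-classical class I antigen of the major histocompatibility complex, was at 2.48, 223 and 1.49 CPM in siNC and 7.69, 403 and 7.81 CPM in siPkm2. These correlations are descriptions with n = 6 and carry no p.

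The lists of other genes read below were also chosen with earlier results of these libraries known, so nothing is read from their counts of calls. Of 28 other chemokine ligands, 9 passed the filter, and 19 did not, each under 1 CPM in every library. None of the 9 was called without the block, while 2 had an unadjusted p under 0.05. With the block 3 were called and all 3 were higher in siPkm2, beside 2.65% of all genes. Cxcl3, a CXCR2 ligand close in sequence to Cxcl1 and Cxcl2, was at 0.120, 109 and 0.219 CPM in siNC and 2.98, 379 and 6.76 CPM in siPkm2. Its log2 fold change was 2.67 ± 0.53 with the block (edgeR adjusted p = 0.0257) and 1.83 without it (adjusted p = 0.763). Like its paralogs it was high in replicate 2, where siPkm2 was above siNC by 1.79 on log2(CPM + 0.5).

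Cxcl9, an interferon-induced ligand of CXCR3 like Cxcl10, was at 0.160, 10.9 and 0.0876 CPM in siNC and 0.792, 39.1 and 2.42 CPM in siPkm2. It had a log2 fold change of 2.35 ± 0.43 with the block (edgeR adjusted p = 0.0224) and 1.93 without it (adjusted p = 0.665). Ccl9, a ligand of CCR1, was not raised in replicate 2. It was at 6.69, 8.70 and 8.23 CPM in siNC and 23.1, 11.9 and 18.8 CPM in siPkm2, so that the groups did not overlap, with a log2 fold change of 1.14 ± 0.26 (edgeR adjusted p = 0.0353 with the block and 0.138 without it). Ppbp, another CXCR2 ligand, was at 1.14 ± 0.32 and was not called (edgeR adjusted p = 0.0544 with the block). Ccl27a went the other way, at 8.73, 4.61 and 8.19 CPM in siNC and 2.66, 3.58 and 3.47 CPM in siPkm2. Its groups did not overlap, and at -1.10 ± 0.30 it was not called (edgeR adjusted p = 0.0509 with the block). Of the 9 tested ligands, 6 had a positive and 3 a negative log2 fold change without the block.

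Receptors for these ligands were scarcely read. Of 22 receptor genes 2 passed the filter, Ccr10 and the scavenger Ackr3, which binds Cxcl12, and neither was called with or without the block, while 0 had an unadjusted p under 0.05. Ackr3 was at 35.2, 88.7 and 29.9 CPM in siNC and 29.6, 91.2 and 21.98 CPM in siPkm2, higher in replicate 2 of both groups. Of the 20 that did not pass, 16 were under 1 CPM in every library, and the highest value of any was 3.54 CPM, for Ccrl2.

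Lists of genes known to accompany each chemokine type were read in the same fits. They are no independent test, since they too were chosen with earlier results known, and their counts are a description. All 10 genes of a list of NF-kB feedback and co-induced genes were tested, none was called without the block, and 1 was called with it, beside 2.65% of all genes called as higher. It was Il6, the cytokine interleukin-6. Il6 was at 0.120, 38.6 and 0.482 CPM in siNC and 6.01, 96.3 and 8.36 CPM in siPkm2, and rose by 2.62 ± 0.66 on the log2 scale (edgeR with the block, adjusted p = 0.0426; without the block, 0.746). Tnfaip2, at 0.98 ± 0.21, Nfkb2, at 0.58 ± 0.09, and Tnfaip3, at 0.48 ± 0.10, had a fold under 2. Their edgeR adjusted p-values with the block were 0.0296, 0.0164 and 0.0269. Nfkbie, an inhibitor of NF-kB, was at 0.48 ± 0.19 (edgeR adjusted p = 0.121 with the block). In replicate 2, 5 of the 10 were over 4-fold higher in both groups, beside 1.23% of all genes, and the list's median there was 2.38 in siNC and 1.94 in siPkm2, beside -0.03 and 0.00 over all genes.

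Of 9 interferon response genes, all tested, none was called without the block and 4 were called with it, all higher in siPkm2, beside 2.65% of all genes. They were the transcription factor genes Stat2 and Irf9 and the antiviral effectors Ifit1 and Mx1. Mx1 was at 0.120, 10.6 and 0.482 CPM in siNC and 2.38, 39.3 and 4.07 CPM in siPkm2, with a log2 fold change of 2.55 ± 0.38 (edgeR with the block, adjusted p = 0.0161; without, 0.581). The siPkm2 library was the higher in each replicate number, while the groups overlapped through siNC replicate 2. The other 3 called had values of 1.95 ± 0.42 for Stat2, 1.54 ± 0.41 for Irf9 and 3.91 ± 1.00 for Ifit1, with edgeR adjusted p-values between 0.0299 and 0.0484. In replicates 1, 2 and 3, siPkm2 minus siNC on log2(CPM + 0.5) was 2.78, 0.70 and 2.32 for Stat2. It was 2.34, 0.32 and 1.92 for Irf9 and 5.81, 1.29 and 4.46 for Ifit1. The difference of these 3 genes was thus far smaller in replicate 2. Isg15, a ubiquitin-like interferon product, was at 3.72 ± 1.07 and was not called (adjusted p = 0.0593 with the block). The median of the list in replicate 2 was 5.31 in siNC and 1.69 in siPkm2, beside 5.68 and 4.62 for Cxcl10 and 7.88 and 7.40 for Ccl5.

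A list of 10 cytokines held known inducers of these chemokines, such as interleukin-1, tumour necrosis factor and the interferons. It also held Lif, Csf1, Csf2 and Csf3, which are not counted as inducers here. Of the 10, Lif and Csf1 passed the filter and 8 did not. Lif, an interleukin-6 family cytokine, was at 5.69, 50.6 and 1.44 CPM in siNC and 21.8, 89.7 and 7.13 CPM in siPkm2, and rose by 1.56 ± 0.29 with the block (edgeR adjusted p = 0.0224; without, 0.753). Csf1 was at -0.003 ± 0.13 (edgeR adjusted p = 0.990 with the block). Ifng and Il17a had 0 counts in all 6 libraries. Il1a reached at most 0.311 CPM and Il1b at most 0.0876 CPM. The rest of those that did not pass the filter were read almost only in replicate 2. There, in siNC and siPkm2, Tnf was at 0.445 and 1.60 CPM and Ifnb1 at 0.202 and 1.09 CPM. Csf2 was at 1.01 and 1.48 CPM in replicate 2, and Csf3 at 0.930 and 2.61 CPM. Elsewhere Ifnb1 and Csf2 had 0 counts, Tnf at most 0.0466 CPM and Csf3 at most 0.0400 CPM.

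**Figure D5:**
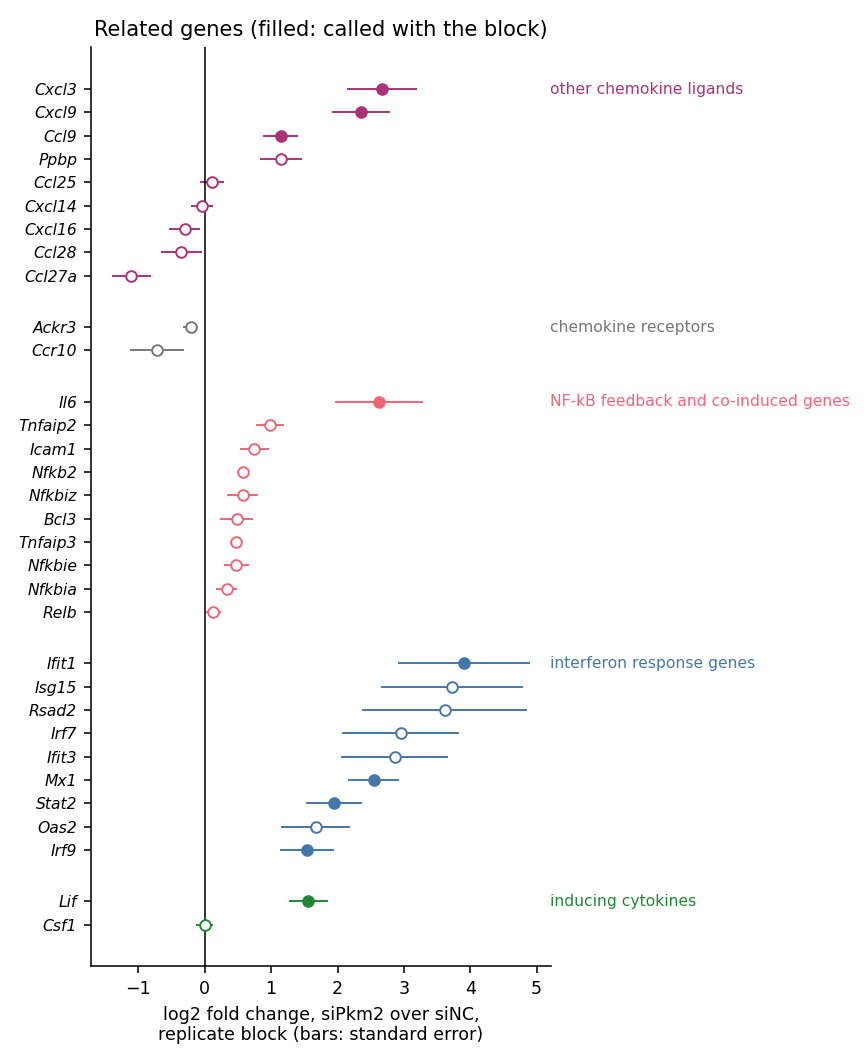
Log2 fold change of siPkm2 over siNC in the edgeR fit with the replicate number as a block, with bars for the standard error, for the tested genes of 5 lists. Filled points are genes called at a fold over 2 and an adjusted p under 0.05. All 9 interferon response genes lie to the right of 0, and 4 of them are filled, while Ccr10 and Ackr3 are open and lie to its left.

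Markers of other cells that make chemokines were read beside these values. The 8 macrophage markers summed to 75.9 and 62.1 CPM in replicate 2 of siNC and siPkm2 and to 8.69 to 19.8 CPM in the other 4 libraries, and 2 of the 8, Cd68 and Cd14, were over 4-fold higher in replicate 2 of both groups. Of the other 6 markers, Ptprc, Adgre1, C1qa and Itgam were at or below 0.438 CPM in every library, Csf1r was at 0.561 to 2.14 CPM and Lyz2 at 2.004 to 3.63 CPM. The 6 neutrophil markers summed to at most 1.21 CPM, the 6 markers of T and NK cells to at most 0.0932 CPM and the 6 endothelial markers to at most 2.10 CPM. The 6 fibroblast markers summed to 8447 and 10205 CPM in replicate 2 and to 5794 to 15650 CPM elsewhere. Col1a1, Col1a2 and Col3a1 made up most of each sum. Pdpn alone was at 213 and 315 CPM in replicate 2 and at 55.7 to 201 CPM elsewhere. Prg4 was at 15.9, 23.6 and 22.5 CPM in siNC and 129, 41.5 and 133 CPM in siPkm2. The paper lists PRG4 among the matrix genes that were higher in a subgroup of chondrocytes, so Prg4 does not set fibroblasts apart from chondrocytes. Of all the cell markers, the fit with the block called Cd14, Pdpn and Prg4, each as higher in siPkm2, beside 2.65% of all genes. The other fibroblast markers were not called and did not share that direction. Their log2 fold changes with the block were -0.62 for Col1a1, -0.32 for Col1a2, -0.92 for Thy1 and 0.23 for Col3a1. The part of cells other than chondrocytes, and of the lower chondrocyte markers in replicate 2, in the chemokine values was not tested.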

How the data were processed

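RNA-seq was available for 6 libraries of primary mouse chondrocytes, 3 of siNC and 3 of siPkm2, grouped by their titles. The authors deposited estimated counts per gene, not normalized, and TPM, and a fold change and p-values from comparing the groups, which were not used here. The submitters' processing notes list the build mm9 and edgeR, while the aligner and counter are not given in the sources used here. Of 55416 identifiers, 94.0% were in GENCODE M21.

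Estimated counts were rounded and fitted with edgeR 4.0.16 in R 4.3.3 (limma 3.58.1) by the quasi-likelihood test with TMM factors, on the 15269 genes left by filterByExpr, with Benjamini-Hochberg adjustment over all of them and calls at a fold over 2 and an adjusted p under 0.05. The scripts were tested on simulated data. CPM used the TMM-scaled library sizes, with a pseudocount of 0.5 on the log2 scale. Totals of 22317065 to 25691096 counts made 3 counts equal to 0.117 to 0.140 CPM, and counting intervals have a level of 95%. Within a group, 52.6% to 73.4% of genes differed between libraries by more than sampling noise, so none was a duplicate.

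The replicate numbers come from the titles. Deviations of same-numbered libraries from their group means correlated at 0.716, 0.794 and 0.720, and those of different numbers at 0.217 at most, so the numbers pair the libraries, and blocked values are printed beside calls that the block changes. Alternatives were RLE factors, no filter, the block, DESeq2 1.42.0, no threshold on the fold, each library left out, other pseudocounts and TPM, and, added after seeing the data, both replicate 2 libraries left out.

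The chemokines and all gene lists were chosen with earlier results of these data known. All 10 chemokines are named, and 2 genes of the lists are not reported here and were left out of the counts. Of each list other than the cell markers, the text names up to 4 tested genes with the largest absolute log2 fold change without the block. It also names every gene called with the block, and for likeness the 5 genes with the highest r. Ccl27a and Tnfaip3 were named besides, after their values were seen. Of genes that did not pass the filter, those named were chosen after their values were seen.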

Additional observations from a re-analysis of the deposited data

How the results depend on the processing

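The limits are those of 3 libraries a group, of which replicate 2 differs from the others by more than the groups do. RLE factors called 0 genes, as did no threshold on the fold. No filter on low counts called 9 of 28059 genes, the replicate block 890 of 15269 and DESeq2 430 of 28059. Leaving out each library in turn called 0 to 105, with 105 reached without siNC replicate 2. Leaving out both replicate 2 libraries, chosen after seeing the data, called 507 genes, and 1639 with the block. Among the 9 chemokines the block called 2, leaving out both replicate 2 libraries 1, and that with the block 6. Among the other ligands these settings called 3 of 9, 2 of 10 and 4 of 10. DESeq2 called 2 of 24, 1 higher and 1 lower in siPkm2. No setting tried called a receptor.

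Leaving out each library in turn moved the unblocked log2 fold changes of the chemokines across 0. They ran from -4.11 to 6.32 for Cxcl1, -5.36 to 12.7 for Cxcl2, -3.92 to 3.53 for Cxcl5, -2.29 to 4.85 for Ccl2, -1.56 to 4.89 for Ccl7, -1.57 to 6.12 for Cxcl10, -6.23 to 6.46 for Ccl5, -2.15 to 0.10 for Cxcl12 and -1.78 to 0.85 for Cx3cl1. For all but Cxcl12 the extremes were the fits without a replicate 2 library, and for Cxcl12 those without a replicate 3 library. Ccl5, at -0.18 in the unblocked fit, was at 0.10 with the block, 0.40 without both replicate 2 libraries and 0.37 without them and with the block. The fitted values of Cxcl2 depend on the prior count, since 2 of its siNC libraries have 0 counts.

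The NF-kB type median of siPkm2 minus siNC moved to 1.75 in replicate 1 and 2.20 in replicate 3 with a pseudocount of 0.1, and to 1.71 in replicate 1 on log2(TPM + 0.5). The interferon type median of replicate 2 against the others, with pseudocounts of 1 and 0.1 and on TPM, was 6.50, 7.06 and 7.11 in siNC and 5.87, 6.13 and 6.18 in siPkm2. Without replicate 1 or replicate 3 it ran from 6.76 to 6.81 in siNC and from 5.90 to 6.12 in siPkm2. None of these medians changed sign. The cause of these shifts was not tested.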
